A study of Drosophila melanogaster with 29 samples.

Results

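The genes described here carry the signal of phospholipase C and diacylglycerol in the fly. They are the 7 genes rdgA (FBgn0261549), norpA (FBgn0262738), Plc21C (FBgn0004611), inaE (FBgn0261244), inaC (FBgn0004784), Pkc53E (FBgn0003091) and Galphaq (FBgn0004435), out of 17612 genes in the deposited tables. They were found by symbol in the low-cell tables and joined to the bulk and single-cell tables by FlyBase identifier, and all 7 were present in every table. rdgA was selected on its high level in PEN neurons, so where PEN neurons are set against other cells or brain RNA its levels are a description without a test. The other 6 genes were listed for their place in the pathway.

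When a receptor activates Galphaq, the alpha subunit of a heterotrimeric G protein, a phospholipase C of the beta class cuts a membrane phosphoinositide into the soluble messenger IP3 and the membrane lipid diacylglycerol. norpA and Plc21C encode such phospholipases. Diacylglycerol activates conventional protein kinases C, which inaC and Pkc53E encode, and it is removed by diacylglycerol kinases such as rdgA, which turn it into phosphatidic acid, or by the diacylglycerol lipase encoded by inaE. In fly photoreceptors norpA, inaC and rdgA are known for the electrical response to light and for its termination.

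RNA came from sorted neurons of the central complex, the brain region that holds the fly's sense of heading, in female flies aged 3 to 5 days. In every sorted group a driver line expressed the nuclear red fluorescent reporter nls-tdTomato, by which the cells were sorted. Bulk libraries of 754 to 1270 cells were made from PEN2 neurons (driver SS02232, n = 2), PEG neurons (SS02191, n = 2), EPG neurons (SS00096 and SS00131, n = 2 each) and D7 neurons (SS02238 and SS30295, n = 2 each), with 2 libraries of 5 ng whole brain RNA (WB), optic lobes included, as the reference. Low-cell libraries were made from 35 PEN2 cells (SS02232, n = 14) or 40 R4d ring neurons (SS00238, n = 7), with 8 libraries of 50 pg central brain RNA (CB), taken after the optic lobes were cut off. Single cells were sorted into wells of 6 plates for PEN1 neurons (SS62862) and 5 plates for PEN2 neurons (SS02232). PEN1, PEN2, PEG and R4d thus rest on 1 driver line each, and EPG and D7 on 2 lines each. A line can label cells outside its type.

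The bulk table held FPKM, read fragments normalised for gene length and library depth, and each value was divided by a TMM scaling factor of its library, which was 0.698 to 1.08 in sorted libraries and 1.96 and 1.95 in WB. Each PEN2 low-cell library held 399694 to 500622 counts, each R4d library 1001162 to 1154010 and each CB library 340527 to 415414. Levels in count data are given as CPM, counts relative to all gene counts of the library, and they are not scaled to gene length, so they are not compared between genes. The reporter stood at 193 to 1525 FPKM in the sorted bulk libraries and at 7.06 and 7.13 FPKM in WB. The sum of 10 glial markers was 25.2 and 30.0 scaled FPKM in PEN2, 4569 and 199 in PEG replicates 1 and 2, 4.07 to 46.9 in EPG, 1.38 to 3.95 in D7, and 444 and 468 in WB. Low-cell PEN2 had 2.30 to 426 CPM of them, R4d at most 60.1 CPM and CB at least 7099 CPM. PEG replicate 1 thus stood apart, and PEG replicate 2, at 199, also lay above the PEN2, EPG and D7 libraries. No member called in PEG lost its call without replicate 1, but replicate 2 held glial RNA too. The part of glial RNA in the PEG calls was not tested. Of 15 photoreceptor markers, 11 were at 0 in both bulk PEN2 libraries, and the sum of all 15 was 33.8 and 79.2 scaled FPKM in PEN2, against 177 and 198 in WB. Low-cell PEN2 had a sum of 37.7 to 505 CPM, with 7 of 15 at 0 throughout, R4d had at most 29.5 CPM and CB at least 2252 CPM. The major rhodopsin gene ninaE was at 0 in bulk PEN2 and at 89.3 to 106 scaled FPKM in WB, and its highest value was 2.35 CPM in low-cell PEN2, against 34.1 CPM in CB. Most of the remaining marker level in bulk PEN2 came from eys, at 33.4 and 79.0 scaled FPKM. The acetylcholine markers VAChT, ChAT and ChT summed to 0.716 to 23.6 scaled FPKM in D7 and 154 to 311 in the other sorted types, while low-cell PEN2 had 1842 to 3252 CPM of them, R4d at most 42.6 CPM and CB at least 752 CPM.

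The diacylglycerol kinase gene rdgA had 130 and 321 scaled FPKM in the 2 bulk PEN2 libraries. It had 13.4 and 5.53 scaled FPKM in PEG, 1.50, 4.16, 0.0989 and 1.22 in EPG, 0, 0.0143, 1.13 and 1.81 in D7, and 39.2 and 39.8 in WB. PEN2 lay above every other library, WB followed, then PEG, and the ranges of EPG and D7 overlapped. As deposited, before the scaling, rdgA was at 120 and 228 FPKM in PEN2 and at 77.1 and 77.6 FPKM in WB, so PEN2 was above WB on either scale, by 5.72-fold in scaled means and 2.25-fold in means as deposited.

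**Figure D1:**
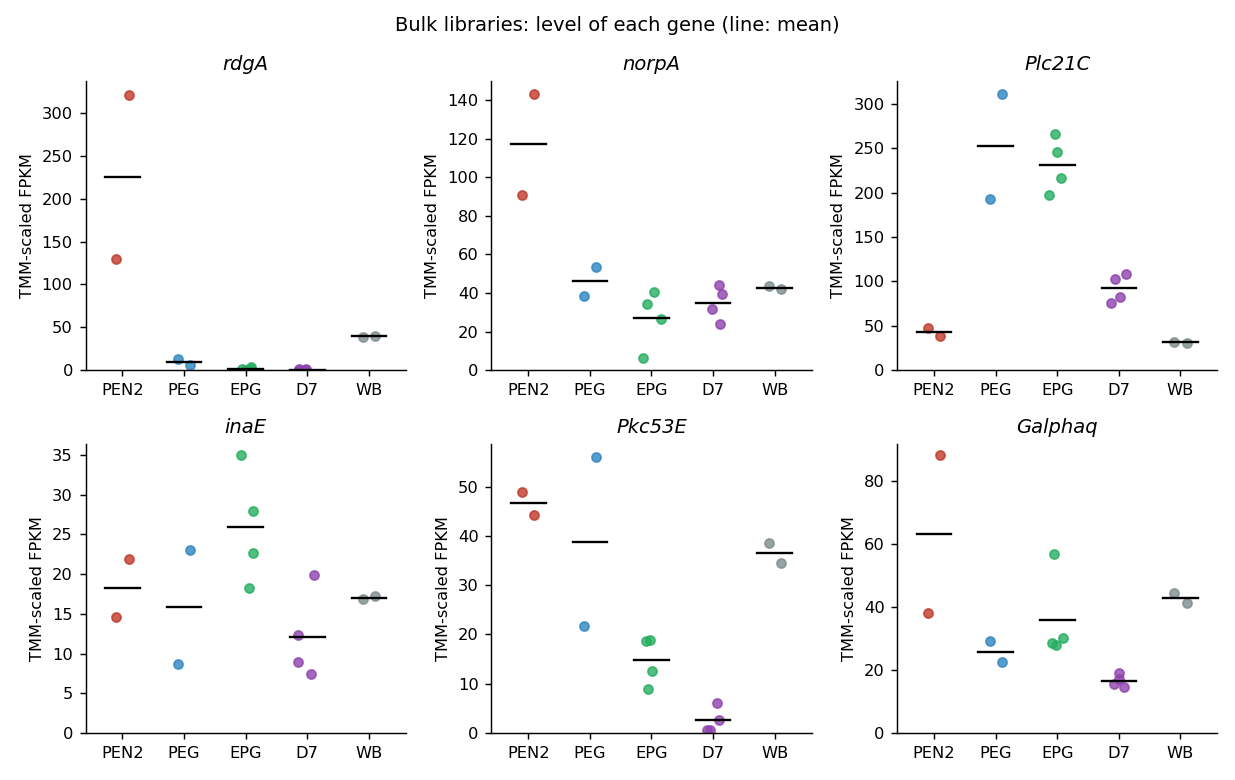
Level of 6 member genes in each bulk library, in TMM-scaled FPKM (vertical axes start at 0 and differ between genes), for PEN2, PEG, EPG, D7 and WB from left to right; points are libraries and lines are group means. rdgA and norpA are highest in both PEN2 libraries, while Plc21C is lowest among the sorted types there; inaC, at 2.22 or less in all libraries, is not drawn.

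In the low-cell libraries rdgA again separated the types. It had 766 to 2499 CPM in the 14 PEN2 libraries, with a median of 1547, and 214 to 385 CPM in the 8 CB libraries, with a median of 268. In R4d it held 0, 1, 2 or 20 counts per library, which is 0 to 19.4 CPM with a median of 0.970. The 3 groups did not overlap, and the mean in PEN2 was 5.73-fold that in CB.

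**Figure D2:**
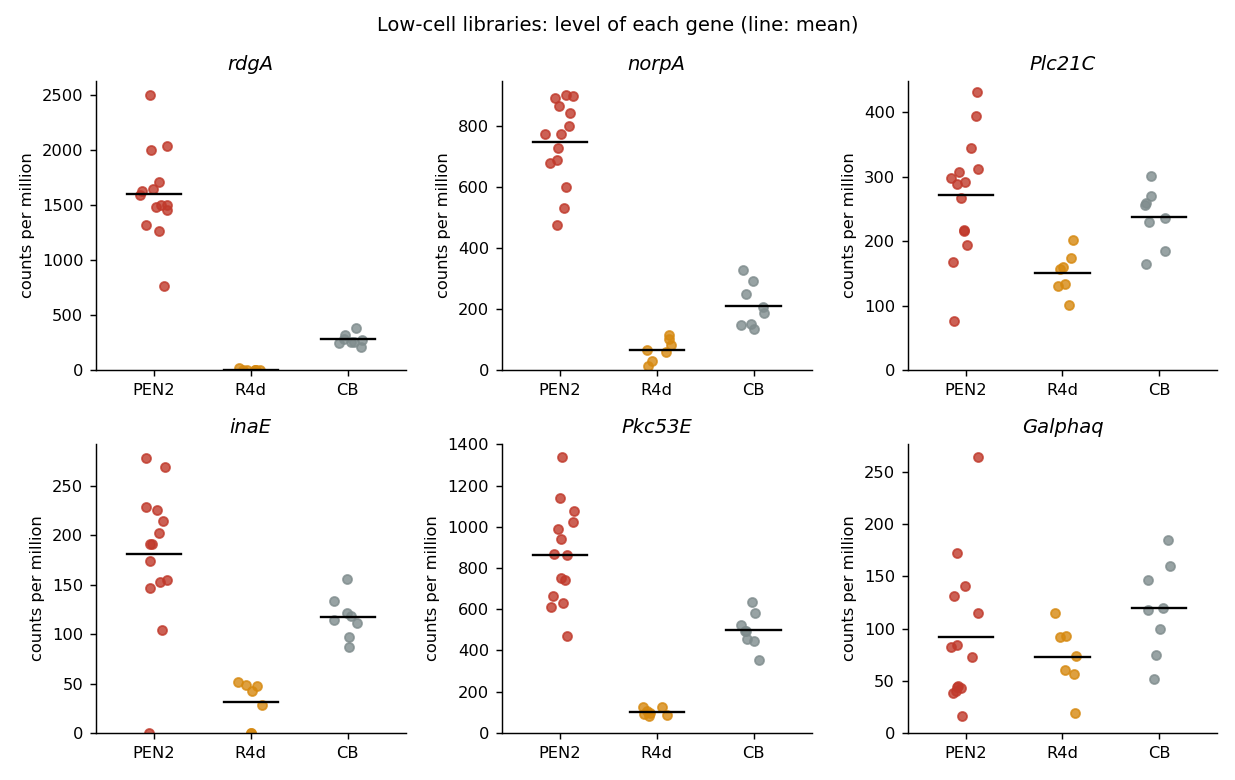
Level of 6 member genes in each low-cell library, in CPM (vertical axes start at 0 and differ between genes), for PEN2 (n = 14), R4d (n = 7) and CB (n = 8); points are libraries and lines are group means. For rdgA and norpA the 3 groups do not overlap, and for Galphaq they overlap throughout.

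Outside PEN neurons, rdgA could be tested. Across all 9500 tested bulk genes, 10.3% were called in D7 against WB, 9.48% in EPG against WB and 6.14% in PEG against WB, where called means an adjusted p under 0.05 (limma, Benjamini-Hochberg). rdgA fell in D7 (log2 change -4.69, SE 0.69, adjusted p = 0.000493) and in EPG (-4.10, SE 0.69, adjusted p = 0.00148), lower in all 4 libraries of each. In PEG its log2 difference from WB was -2.06 (SE 0.80, adjusted p = 0.236), which did not pass. The call in EPG was lost when either WB library was left out, at adjusted p = 0.0973 without replicate 1 and 0.0868 without replicate 2. In these bulk libraries, fewer cells of a type and less RNA per cell cannot be told apart. In R4d against CB, where 27.3% of 5553 genes were called by edgeR, rdgA fell by 6.29 on the log2 scale (SE 0.47, adjusted p = 4.55e-13). In the authors' deposited table, with brain RNA over the sorted type, the log2 values of rdgA were 6.56 for D7, 5.51 for EPG, 3.52 for PEG, -1.09 for PEN2, 6.33 for R4d and -2.43 for low-cell PEN2.

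In the FlyBase annotation the antisense RNA gene lncRNA:CR43836 overlaps rdgA, and whether reads were counted by strand is not stated. It had 4.62 and 0.720 scaled FPKM in bulk PEN2 and 2.15 and 1.29 in WB, and it held counts in 2 of 14 low-cell PEN2 libraries. Reads of the 2 genes cannot be told apart without strand, and the level listed for the antisense gene was far below that of rdgA.

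On the single-cell plates rdgA was compared between both kinds of PEN neuron, which carry the fly's turning signal to the heading network. Its selection used the level in PEN neurons and not the difference between PEN1 and PEN2, so that difference was tested. Summed per plate, rdgA had 1796, 2180, 1630, 1979, 1724 and 1901 CPM on the 6 PEN1 plates. It had 910, 1200, 874, 878 and 1052 CPM on the 5 PEN2 plates. Every PEN1 plate lay above every PEN2 plate. The log2 change was 0.94 (SE 0.16, adjusted p = 0.00718, edgeR), and rdgA was the only member among 16 called genes, 0.256% of the 6249 tested. The PEN1 plates also held more wells with the reporter, 241 of 380 against 106 of 362 on PEN2 plates. Over the wells with at least 10 reporter counts, the change was 0.88 with an adjusted p of 0.0441. The call was lost without PEN2 plate 3, at a log2 change of 0.89 and an adjusted p of 0.0657. The acetylcholine markers summed to 2728 to 3908 CPM on PEN1 plates and 1905 to 3091 CPM on PEN2 plates. The glial markers summed to 71.2 to 1414 CPM on PEN1 plates, with a median of 265, and to 53.3 to 1532 CPM on PEN2 plates, with a median of 75.3. The part of either marker list in the difference of rdgA was not tested.

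The remaining members did not pass between PEN1 and PEN2 plates. Pkc53E had 786 to 1961 CPM in PEN1 and 721 to 1083 CPM in PEN2 (log2 0.69, SE 0.21, adjusted p = 0.327). norpA had 839 to 1004 CPM in PEN1 and 617 to 879 CPM in PEN2 (log2 0.30, SE 0.17). inaE had 121 to 202 CPM in PEN1 and 127 to 419 CPM in PEN2 (log2 -0.67, SE 0.30). For Plc21C the difference was 0.08 with an SE of 0.30, and for Galphaq it was -0.32 with an SE of 0.43. The groups overlapped for each of these 5 genes, and inaC was filtered out for its low counts.

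**Figure D3:**
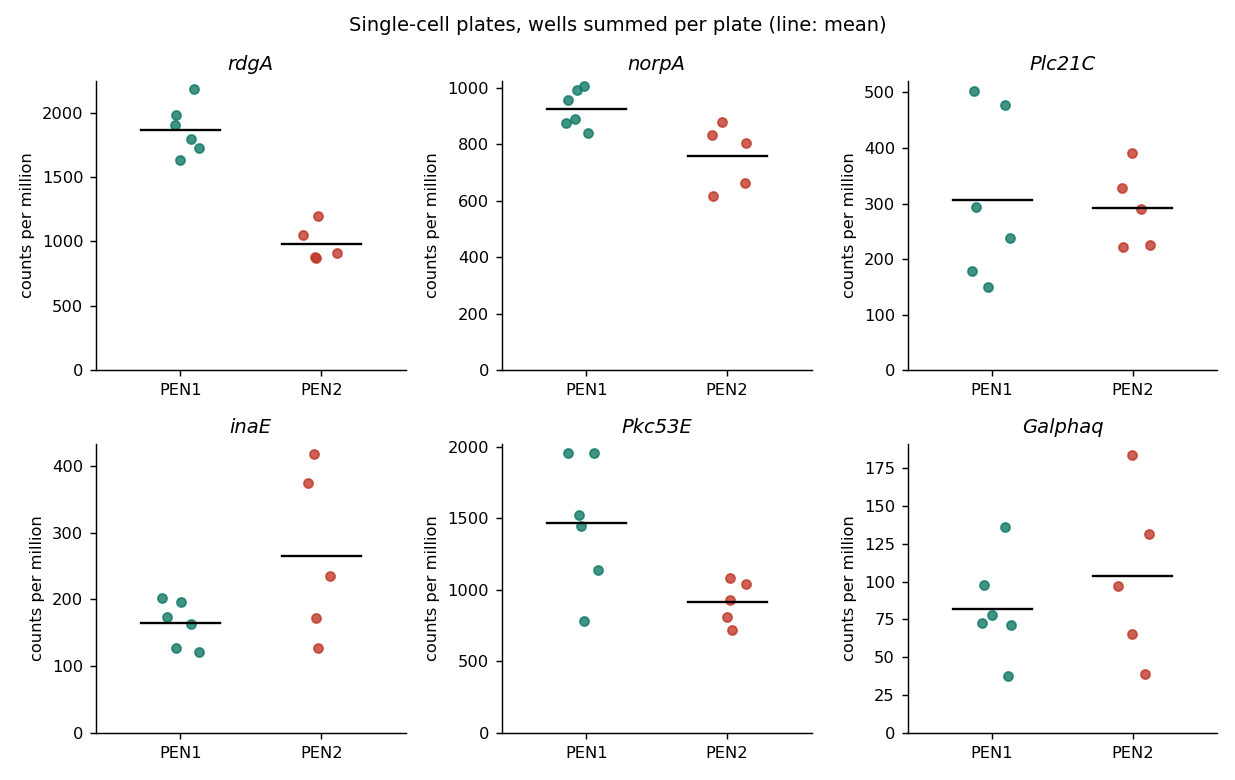
Level of 6 member genes on each single-cell plate, in CPM over the summed wells (vertical axes start at 0 and differ between genes), for PEN1 (6 plates) and PEN2 (5 plates); points are plates and lines are means. Only rdgA shows no overlap, with PEN1 plates at 1630 to 2180 and PEN2 plates at 874 to 1200.

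Within single wells rdgA was the member found most often in PEN1. Wells with the reporter were thinned to 10000 counts each, which left out 6 PEN1 wells and no PEN2 well. rdgA then had a count in 215 of 235 PEN1 wells (91.5%, exact 95% interval 87.2 to 94.7) and in 67 of 106 PEN2 wells (63.2%, 53.3 to 72.4). By plate the share was 87.2% to 95.9% in PEN1 and 53.3% to 78.3% in PEN2. Unthinned, with median totals of 59720 counts per PEN1 well and 68108 per PEN2 well, the shares were 96.7% and 81.1%. The median level per well was 1711 CPM in PEN1 and 246 CPM in PEN2, while the 90th percentile was 5140 CPM in PEN1 and 4312 CPM in PEN2. The upper ends of the distributions thus lay closer together than the medians. Intervals cover counting error only.

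After the same thinning the other genes were found in fewer PEN1 wells than rdgA, while in PEN2 Pkc53E was found in as many wells. norpA had a count in 76.2% of PEN1 wells (70.2 to 81.5) and 62.3% of PEN2 wells (52.3 to 71.5), and Pkc53E in 57.9% of PEN1 wells (51.3 to 64.3) and 63.2% of PEN2 wells (53.3 to 72.4). Plc21C had one in 27.2% and inaE in 21.7% of PEN1 wells, against 28.3% and 23.6% of PEN2 wells. Galphaq had a count in 17.02% of PEN1 wells and 22.6% of PEN2 wells. The photoreceptor kinase gene inaC had none in 235 PEN1 wells or 106 PEN2 wells, which at that depth allows shares of wells with a count of up to 1.28% and 2.83% and sets no limit on the cells that express it. Unthinned, it had a count in 3 of 241 PEN1 wells and 4 of 106 PEN2 wells, never more than 1 count in a well. The plates held no sorted type that should lack the other members, so a background share for them was not measured. rdgA and norpA were found together in 168 of 235 PEN1 wells and in 51 of 106 PEN2 wells, and both were missing in 9 PEN1 wells and 24 PEN2 wells.

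**Figure D4:**
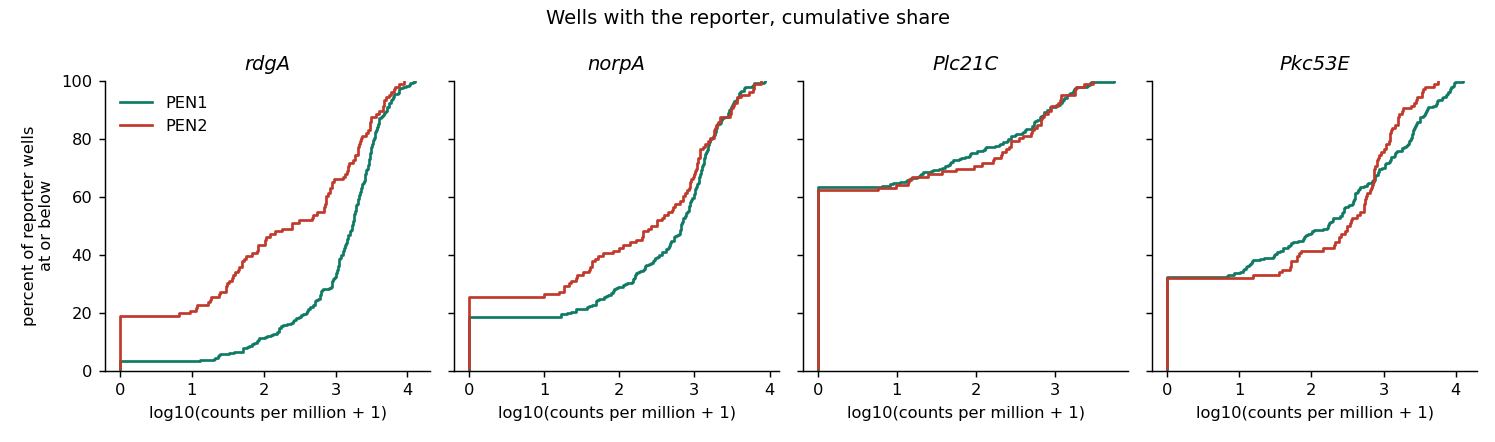
Cumulative share of wells with the reporter (vertical axis, percent) at or below a given level (horizontal axis, log10 of CPM plus 1), for PEN1 (241 wells) and PEN2 (106 wells). For rdgA the PEN2 curve lies to the left of the PEN1 curve, with medians of 1711 in PEN1 and 246 in PEN2, while for Pkc53E the curves cross.

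Wells with and without the reporter on the same plates were compared as well. For rdgA this is a description, with 2003 CPM on average in PEN1 wells with the reporter and 1362 CPM in those without it, and 1115 CPM in PEN2 wells with the reporter and 916 CPM in those without it. It was higher with the reporter on 6 of 6 PEN1 plates and 5 of 5 PEN2 plates, though on PEN1 plate 1 only at 1798 CPM against 1792 CPM. Of the other members, Pkc53E fell in PEN1 wells with the reporter, at a mean of 1135 CPM against 2458 CPM without it (log2 change -1.17, SE 0.23, adjusted p = 0.000982, edgeR), and was lower with the reporter on all 6 plates. In that comparison 0.281% of 6751 genes were called. In PEN2 wells 0.0445% of 6743 genes were called and no member was by edgeR or DESeq2, with none of the 5 tested at an unadjusted p under 0.05 and Pkc53E at 772 CPM with the reporter and 987 CPM without it (log2 -0.49, SE 0.27). Over all genes, the median log2 difference was 1.01 in PEN1 wells and -0.45 in PEN2 wells. The Pkc53E call in PEN1 was lost when wells needed 1000 genes, at an adjusted p of 0.103 and a log2 change of -1.38. Whether PEN1 and PEN2 differ in this contrast was not tested.

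Of the phospholipase C genes, norpA was highest in the bulk PEN2 libraries, without passing a test, and Plc21C was lower there than in the other sorted types. norpA had 90.9 and 143 scaled FPKM in PEN2. It had 38.7 and 53.3 in PEG, 6.40 to 40.8 in EPG, 24.0 to 44.1 in D7, and 43.4 and 41.9 in WB. Both PEN2 libraries lay above all 12 others, and the remaining groups overlapped or lay close together. As deposited, norpA was at 83.5 and 101 FPKM in PEN2 and at 85.3 and 81.7 FPKM in WB, so on that scale PEN2 and WB overlapped. Against the other sorted types, where 2.15% of genes were called, norpA differed by 1.77 on the log2 scale (SE 0.52, adjusted p = 0.128) and did not pass. Against WB, where 7.73% of genes were called, the difference was 1.40 (SE 0.66, adjusted p = 0.313), and 0.14 without scaling.

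Plc21C had 47.2 and 39.0 scaled FPKM in PEN2. It had 192 and 311 in PEG, 197 to 266 in EPG, 75.6 to 108 in D7, and 32.0 and 30.7 in WB. PEG and EPG overlapped at the top, D7 followed, and PEN2 was the lowest sorted type, with no overlap with the other 3. Plc21C rose in PEG (log2 change 2.93, SE 0.30, adjusted p = 4.55e-05), in EPG (2.84, SE 0.26, adjusted p = 1.19e-05) and in D7 (1.51, SE 0.26, adjusted p = 0.00148) against WB, and in PEN2 its difference from WB was 0.44 (SE 0.30, adjusted p = 0.512). The call in D7 was lost without scaling, at 0.41 with an adjusted p of 0.435, and without WB replicate 1 or 2, at adjusted p = 0.237 and 0.271. In the authors' deposited table, with brain RNA over the sorted type, the log2 values were -1.76 for PEG, -1.70 for EPG, -0.32 for D7 and 0.86 for PEN2. Their FDR was 0.235 for PEG, 0.0373 for EPG, 0.688 for D7 and 0.327 for PEN2, so only EPG was under 0.05 there.

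Set against the other sorted types, Plc21C fell in PEN2 (log2 change -1.98, SE 0.23, adjusted p = 0.000779), below all 10 other sorted libraries. It rose in EPG by 1.21 (SE 0.18, adjusted p = 0.00375), where 2.54% of genes were called, and in PEG by 1.33 (SE 0.23, adjusted p = 0.0109), where 1.92% were called. The call in PEG was lost without PEG replicate 2 (log2 0.92, adjusted p = 0.106), without WB replicate 1 or 2 (adjusted p = 0.0543 and 0.0553) and with upper-quartile scaling (0.149). PEN2 was in the mean of the others in both of these comparisons, so its low level enters them.

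Within a library the ratio of the 2 phospholipase genes does not depend on the scaling between libraries, and it was taken after their values were seen. Plc21C over norpA was 0.519 and 0.272 in PEN2. It was 4.97 and 5.84 in PEG, 5.32 to 41.6 in EPG, 1.71 to 4.50 in D7, and 0.737 and 0.733 in WB. PEN2 and WB were below 1, and the other 10 sorted libraries were above it. PEN2 replicate 1, the PEG libraries and D7 replicates 3 and 4 share a leading number in their titles, whose meaning is not stated. Among those 5 libraries alone, and likewise among PEN2 replicate 2 and EPG replicates 3 and 4, which share another number, the ratio was lowest and the rdgA and norpA levels highest in PEN2. The WB libraries share a title number with no sorted library, so that label and the brain RNA cannot be told apart.

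**Figure D5:**
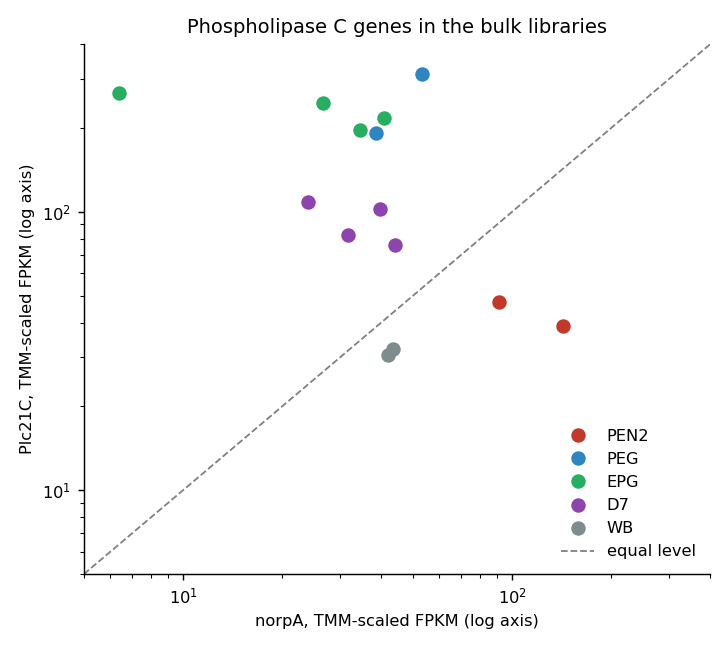
Level of Plc21C (vertical) against norpA (horizontal) in each bulk library, both in TMM-scaled FPKM on log axes, coloured by group; the dashed line marks equal levels. PEN2 and WB lie below the line, and all PEG, EPG and D7 libraries lie above it.

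Among the low-cell groups, PEN2 had 475 to 902 CPM of norpA, with a median of 773. R4d had 14.0 to 116.6 CPM and CB had 135 to 329 CPM, with medians of 66.9 and 197. The 3 groups did not overlap. norpA rose in PEN2 against CB by 1.69 on the log2 scale (SE 0.25, adjusted p = 1.58e-06), fell in R4d against CB (-1.63, SE 0.29, adjusted p = 1.99e-05), and was higher in PEN2 than in R4d by 3.32 (SE 0.29, adjusted p = 1.48e-11). Of the members other than rdgA, 2 were called in PEN2 against CB, both higher, beside 18.2% of all genes. In R4d against CB, 3 of them were called, all lower, beside 27.3% of all genes. In PEN2 against R4d, 4 were called, all higher, beside 23.4% of all genes. The comparisons with CB share the CB libraries.

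Plc21C varied less among these groups. PEN2 had 76.6 to 431 CPM with a median of 290, R4d had 101 to 203 CPM with a median of 158, and CB had 164 to 302 CPM with a median of 245. All pairs of groups overlapped. It was higher in PEN2 than in R4d (log2 change 0.70, SE 0.23, adjusted p = 0.0202), a call that was lost without the filter on low counts (adjusted p = 0.0558) and in a fit of only those 2 groups (0.0508). The differences from CB were 0.07 in PEN2 (SE 0.21) and -0.63 in R4d (SE 0.25, adjusted p = 0.0574), and neither passed by edgeR as run here. In the authors' deposited table the log2 value of CB over R4d was 0.68 for Plc21C, with an FDR of 0.00673. Of the 2 members not called in R4d against CB, Plc21C and Galphaq, 1 was called by DESeq2 and 1 in a fit of only those groups. EPG, PEG and D7, where the bulk level of Plc21C was high, had no low-cell libraries here.

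The G protein gene Galphaq had 38.1 and 88.0 scaled FPKM in bulk PEN2. It had 29.0 and 22.5 in PEG, 27.9 to 56.7 in EPG, 14.5 to 19.0 in D7, and 44.2 and 41.2 in WB. All 4 D7 libraries lay below every other library, while PEN2, PEG, EPG and WB overlapped or lay next to one another. It fell in D7 against WB (log2 change -1.33, SE 0.38, adjusted p = 0.0437) and against the other sorted types (-1.13, SE 0.27, adjusted p = 0.0364), where 4.51% of genes were called. These calls were near the threshold and held under 12 of 21 and 8 of 21 alternatives. In PEN2 against the other sorted types the difference was 1.22 (SE 0.34, adjusted p = 0.109). In low-cell libraries PEN2 had 16.1 to 265 CPM with a median of 77.5, R4d had 19.0 to 115 CPM with a median of 73.6, and CB had 51.2 to 185 CPM with a median of 119. All groups overlapped, and no low-cell comparison called Galphaq by edgeR. CG45086, which overlaps Galphaq on the same strand in the same annotation, had 1.05 to 16.98 scaled FPKM in the bulk libraries and no count in the low-cell libraries or plates. How the authors' counting divided reads between them is not stated.

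The protein kinase C gene Pkc53E had 48.9 and 44.3 scaled FPKM in bulk PEN2. It had 21.7 and 55.9 in PEG, 8.83 to 18.9 in EPG, 0.644 to 6.15 in D7, and 38.6 and 34.5 in WB. PEN2, PEG and WB were high, EPG lay below all of them and D7 below EPG, without overlap. It fell in D7 against WB (log2 change -3.69, SE 0.61, adjusted p = 0.00119) and against the other sorted types (-3.35, SE 0.44, adjusted p = 0.000864). Leaving out WB replicate 1 or 2 moved the adjusted p against WB to 0.0652 and 0.0530. In PEN2 the differences from the other sorted types (2.03, SE 0.55, adjusted p = 0.0925) and from WB (0.34, SE 0.70) did not pass.

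Pkc53E in low-cell libraries had 468 to 1340 CPM in PEN2, with a median of 864. R4d had 80.6 to 128 CPM with a median of 96.9, and CB had 355 to 637 CPM with a median of 495. R4d lay below all other libraries, and PEN2 and CB overlapped. Pkc53E rose in PEN2 against CB by 0.67 on the log2 scale (SE 0.16, adjusted p = 0.00192), fell in R4d against CB (-2.27, SE 0.20, adjusted p = 1.59e-11), and was higher in PEN2 than in R4d by 2.95 (SE 0.19, adjusted p = 9.1e-15). D7 and R4d, both low in Pkc53E, were also both low in the acetylcholine markers, whose part in the result was not tested.

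The related kinase gene inaC, known from photoreceptors, was near 0 in sorted neurons. It was at 0 in both PEN2 and all 4 EPG bulk libraries, at 0 and 0.0124 scaled FPKM in PEG, at 0 in 3 D7 libraries and 2.22 in the other, and at 1.35 and 1.46 in WB. Of the low-cell libraries, it held counts in 1 of 14 PEN2 libraries, 1 of 7 R4d libraries and 8 of 8 CB libraries, with 2.43 to 56.1 CPM in CB. It passed no filter in the count data, and no bulk comparison called it. Without scaling, which leaves out the division of WB by 1.96 and 1.95, it was called lower than WB in all 4 sorted types. As deposited, inaC reached 1 FPKM only in WB, at 2.66 and 2.85, and in D7 replicate 4, at 2.39. It passed the bulk filter through these libraries, so in PEN2, EPG and PEG only a lower call was possible. In the authors' deposited table, which does list it for low-cell PEN2, the log2 value of CB over PEN2 was 6.65 with an FDR of 2.46e-05.

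The diacylglycerol lipase gene inaE had 14.6 and 21.9 scaled FPKM in bulk PEN2, 8.63 and 23.0 in PEG, 18.3 to 35.0 in EPG, 7.36 to 19.9 in D7, and 16.9 and 17.2 in WB. Neighbouring groups overlapped, and no bulk comparison called it. Low-cell PEN2 had 0 to 279 CPM with a median of 191 and 13 of 14 libraries above 0, R4d had 0 to 51.9 CPM with a median of 42.5, and CB had 87.5 to 156 CPM with a median of 116. R4d lay below all CB libraries, and PEN2 overlapped both. It fell in R4d against CB (log2 change -1.90, SE 0.63, adjusted p = 0.0205) and was higher in PEN2 than in R4d (2.40, SE 0.60, adjusted p = 0.00242). In PEN2 the difference from CB was 0.51 (SE 0.52) and did not pass.

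Counted by comparison, all 7 members passed the bulk filter. Of these, 4 were called in D7 against WB, with 1 higher and 3 lower, 2 in EPG against WB, with 1 higher and 1 lower, and 1 in PEG against WB, which was higher, beside 10.3%, 9.48% and 6.14% of all genes called in D7, EPG and PEG. Without WB replicate 1 or 2, 1 was called in D7 and 1 in EPG. Of the 6 members other than rdgA, none was called in PEN2 against WB by limma, and 1, inaC, had an unadjusted p under 0.05. inaC was at 0 in both PEN2 libraries and passed the filter through other groups, so only a lower value was possible for it. The members' signs in that comparison depend on the scaling, since the differences of Plc21C, inaE, Pkc53E and Galphaq turned negative without it. Against the other sorted types, 1 was called lower in PEN2, 1 higher in PEG, 1 higher in EPG and 2 lower in D7, beside 2.15%, 1.92%, 2.54% and 4.51% of all genes in these types. The median log2 difference over the members tested was 0.69 in PEN2 against the other sorted types, beside -0.22 over all genes, and -1.76 in R4d against CB, beside -0.10 over all genes.

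The other genes of the pathway were counted on 6 lists with 54 genes in all, of which 50 were tested in the bulk data and 39 in the low-cell data. In R4d against CB, 4 rose and 16 fell, beside 27.3% of all genes called, with a median log2 difference of -0.62. In PEN2 against CB, 6 rose and 7 fell, beside 18.2% of all genes, with a median of -0.06. Arr1, Arr2 and Gbeta76C are among the genes that fell in both, and with no count in PEN2 or R4d they passed the filter through CB. In PEN2 against R4d, 11 were higher and 4 lower, beside 23.4% of all genes. In the bulk data, 1 rose and 6 fell in PEN2 against WB, 1 rose and 5 fell in PEG, 1 rose and 7 fell in EPG, and 4 rose and 10 fell in D7, beside 7.73%, 6.14%, 9.48% and 10.3% of all genes in these types. Of these falls, 5 in PEN2, 4 in PEG, 5 in EPG and 5 in D7 were light-response genes. A gene could pass the bulk filter through the WB libraries alone. For such a gene, only a fall was possible where a sorted type had no signal. The part of the filter in these falls was not tested. Against the other sorted types, 2 rose in PEN2 and 6 fell in D7, and none was called by limma in EPG or PEG, where 11 and 7 had an unadjusted p under 0.05. Over all genes 2.15% were called in PEN2, 4.51% in D7, 2.54% in EPG and 1.92% in PEG. Between PEN1 and PEN2 plates, where 0.256% of all genes were called, none of 36 tested was called by edgeR, 4 had an unadjusted p under 0.05 and DESeq2 called 1.

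Among the other phospholipases and diacylglycerol kinases (9 genes), Dgk, a further diacylglycerol kinase, rose in PEN2 at 82.1 scaled FPKM on average, against 13.02 in WB (log2 change 2.53, SE 0.46, adjusted p = 0.00301). It rose in EPG as well, at 102 scaled FPKM against 13.02 in WB (2.78, SE 0.39, adjusted p = 0.000364), and in D7, at 41.6 against 13.02 (1.57, SE 0.39, adjusted p = 0.0218). Low-cell PEN2 likewise showed a rise of Dgk, at 63.8 ± 42.7 CPM, against 9.96 ± 8.10 CPM in CB (SD, n = 14 and 8; 2.52, SE 0.70, adjusted p = 0.00734 by edgeR). Dgk was thus above WB in EPG and D7, where rdgA was below it. Its calls against WB held under 18 of 21 alternatives in PEN2, 19 in EPG and 16 in D7. CG34384, a predicted diacylglycerol kinase, fell in D7 at 10.3 scaled FPKM, against 27.6 in WB (-1.40, adjusted p = 0.0297), and had no count in 7 R4d libraries, against 62.4 to 111 CPM in CB. Its call in D7 against WB held under 16 of 21 alternatives.

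Of the 10 other G protein subunits, Ggamma30A, a gamma subunit, was the one named most often by the rule. It fell in D7, at 273 scaled FPKM against 902 in WB (log2 change -1.86, SE 0.48, adjusted p = 0.0258), and against the other sorted types (-2.20, SE 0.34, adjusted p = 0.00275). The call against WB held under 17 of 21 alternatives, and the call against the other sorted types under all 21. Ggamma30A fell in R4d, at 293 ± 98.6 CPM, against 7216 ± 1232 CPM in CB (SD, n = 7 and 8; log2 change -4.61, SE 0.17, adjusted p = 2.75e-21). It was also higher in PEN2, at 8213 ± 1299 CPM (n = 14), than in R4d (4.67, SE 0.17, adjusted p = 3.67e-22 by edgeR). Gbeta76C, the beta subunit known from the eye, had no count in any PEN2 or R4d low-cell library and 28.3 to 115 CPM in CB.

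Of the 10 genes of IP3 and calcium, Cam, which encodes calmodulin, was higher in PEN2 than in the other sorted types, at 1204 scaled FPKM against a mean of 568 in the others (log2 change 1.09, SE 0.23, adjusted p = 0.029). CaMKII, the calcium and calmodulin dependent kinase, was higher in PEN2 than in the other sorted types too, at 160 scaled FPKM against 83.9 (0.88, SE 0.18, adjusted p = 0.0295). These calls held under 18 and 15 of 21 alternatives. D7 was in the mean of the others, at 217 scaled FPKM for Cam and 62.8 for CaMKII, so its low level enters both calls. WB had 1116 scaled FPKM of Cam and 151 of CaMKII, and neither gene was called in PEN2 against WB. Both fell in D7 against the other sorted types, with log2 changes of -2.10 for Cam (adjusted p = 3.8e-05) and -0.89 for CaMKII (adjusted p = 0.0038). Calx, the sodium and calcium exchanger, rose in D7 at 70.0 scaled FPKM, against 15.1 in WB (2.08, SE 0.42, adjusted p = 0.00551), and fell in R4d at 0.814 CPM, against 34.6 CPM in CB (-5.08, SE 0.72, adjusted p = 5.94e-07 by edgeR). The Calx call in D7 held under 18 of 21 alternatives. In PEN2 against CB, Cam rose (log2 change 0.32) and CaMKII fell (-0.79, adjusted p = 0.00212 for each).

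Of the 6 other kinases and C1 proteins, Pkc98E, a protein kinase C of another class, rose in PEN2 at 696 ± 189 CPM, against 338 ± 76.4 CPM in CB (SD, n = 14 and 8; log2 change 0.92, SE 0.16, adjusted p = 3.01e-05). It rose in R4d too, at 896 ± 114 CPM (n = 7; 1.42, SE 0.18, adjusted p = 9.36e-08 by edgeR), where Pkc53E fell. Of the 9 genes of phosphoinositide resynthesis, none was called in the bulk data by limma, with 0 to 3 per comparison at an unadjusted p under 0.05. Cds, which makes the lipid intermediate CDP-diacylglycerol, fell in PEN2 at 245 CPM, against 678 CPM in CB (-1.60, SE 0.24, adjusted p = 2.56e-06), and in R4d at 173 CPM (-1.96, SE 0.30, adjusted p = 2.64e-06 by edgeR). rdgB, a lipid transfer protein gene, fell in PEN2 at 96.2 CPM, against 161 CPM in CB (-0.86, SE 0.27, adjusted p = 0.0194 by edgeR). The rdgB call held under 3 of 5 alternatives.

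Of the 10 light-response genes, several had no count in low-cell PEN2 or R4d. The channel gene trp had no count in any of the 14 PEN2 or 7 R4d low-cell libraries, nor had trpl or the scaffold gene inaD, and in CB these genes had at most 24.1, 4.88 and 11.7 CPM. The arrestin genes Arr1 and Arr2 likewise had no count in PEN2 or R4d, against 70.6 to 153 CPM and 570 to 1025 CPM in CB. Against WB, 5 of the 8 tested fell in PEN2, 4 in PEG, 5 in EPG and 5 in D7, beside 7.73%, 6.14%, 9.48% and 10.3% of all genes called in either direction. Where a gene passed the bulk filter through WB alone and had no signal in a sorted type, only a fall was possible. Of all genes called against WB, 593 of 734 were lower in PEN2, 486 of 583 in PEG, 756 of 901 in EPG and 812 of 979 in D7. Gprk2, a receptor kinase gene, was present in both, at 38.9 CPM in PEN2 and 400 CPM in R4d (log2 change -3.49, SE 0.38, adjusted p = 2.5e-09 by edgeR).

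The genes most like rdgA across the 14 bulk libraries were taken from 2213 genes with a mean of at least 20 scaled FPKM in at least 1 group, as a description. They were dnr1 (Pearson r = 0.96), sano (0.93), lncRNA:CR44492 (0.91), Lasp (0.91) and Rbfox1 (0.91). All 5 had their highest mean in PEN2, which was 126 scaled FPKM for the RNA-binding protein gene Rbfox1, against 37.5 in WB, and 39.4 for sano, against 8.13 in WB. Rbfox1 in low-cell libraries had a median of 1967 CPM in PEN2, 186 CPM in R4d and 616 CPM in CB, and sano one of 288, 7.80 and 27.8 CPM, the same order as rdgA. dnr1 had 47.9, 0 and 23.3 CPM in these groups. lncRNA:CR44492 and Lasp had medians of 0 CPM in all 3 low-cell groups. Among the members, r with rdgA was 0.64 for norpA, 0.73 for Pkc53E, 0.72 for Galphaq, 0.19 for inaC, 0.010 for inaE and -0.63 for Plc21C over the same 14 libraries, which share type, scaling and depth.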

How the data were processed

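The deposited bulk table held FPKM, inferred from its values because no header names the unit. Low-cell and plate tables held whole-number counts per gene as deposited by the authors. The authors' comparison tables held log2 fold changes of brain RNA over the sorted type and p-value (FDR) columns, per the file headers. STARsolo and edgeR are named in the submitters' processing notes, without versions. The genome build is not given in the sources used here. The members and lists were chosen with earlier results of these data known.

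Bulk FPKM were scaled with TMM, kept at 1 or more in at least 2 libraries, and fitted as log2(FPKM + 1) with limma 3.58.1 (trend) over all 14 libraries, 1 term per type. The pseudocount of 1 understates fold changes of low genes. Counts were fitted with edgeR 4.0.16 (TMM, filterByExpr, quasi-likelihood test), with 29 low-cell libraries or 11 plates as samples. Wells needed 500 genes and were added up within each plate, and 4 control positions per plate were left out. The 92 spike-ins and the transgenes entered neither library sizes nor tests. Benjamini-Hochberg adjustment ran over all genes tested, and a gene was called under 0.05. Pathway genes were named by a rule, at most 2 called genes per list and comparison, those with the largest change and a group mean of at least 20. Standard errors for edgeR were derived from the F statistic. Scripts were tested on simulated data. Nothing says that replicates came from separate cultures or animals, so a p-value reflects only how these libraries vary. Low-cell libraries belong to 2 PEN2 entries, 1 R4d entry and 1 CB entry. Every pair of low-cell replicates differed by more than sampling noise. The bulk table gives no counts, so no counting interval is given for it. Alternatives were other scalings, pseudocounts of 0.1 and 5, no filter, a replicate block, DESeq2 1.42.0, other well filters and dropping single bulk libraries or plates. Where leaving 1 out left a single WB, PEN2 or PEG library, its spread was taken from the remaining groups. Overlaps of genes were read from the FlyBase annotation as distributed by Ensembl (BDGP6), which may differ from the authors' build. R 4.3.3 and Python 3.11.15 were used.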

Additional observations from a re-analysis of the deposited data

Results flagged for a closer look

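Single samples far from the rest of their group were looked for in 41 sets of a member and a group, and 5 were found. Chance alone is meant to flag about 1 in 20 such sets. That rate does not hold for a gene near 0, as inaC was here, since a single library with a value above 0 is then flagged by itself. rdgA had 19.4 CPM in R4d library 3, against at most 1.87 CPM in the other 6, and inaC had 39.7 CPM in the same library and no count in the others. inaC had 2.22 scaled FPKM in D7 replicate 4 and 0 in the other 3 D7 libraries. inaC had 1.76 CPM on PEN2 plate 2, the highest of the 5 plates. Galphaq had 56.7 scaled FPKM in EPG replicate 4, against 27.9 to 30.0 in the other 3 EPG libraries.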

How the results depend on the processing

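No change of a called gene reversed sign under any alternative run. Members called moved as follows, among other moves. Without scaling, 5 were called in EPG against WB instead of 2, 4 in PEG against WB instead of 1 and 1 in PEN2 against WB instead of 0. The added ones were all lower than WB, with inaC among them in each type. Also without scaling, 1 was called in D7 against the other sorted types instead of 2. With only the groups compared, the numbers were 4 in EPG, 2 in PEG and 2 in PEN2 against WB, and 1 in D7 against the others. With upper-quartile scaling they were 1 in D7, 0 in PEG and 4 in PEN2 against the others, where norpA, Pkc53E and Galphaq joined Plc21C. A pseudocount of 5 gave 2 in PEG against WB and 2 in PEN2 against the others, and no filter gave 1 in D7 against the others. No filter and a pseudocount of 0.1 each added 1 member in EPG against WB. In low-cell libraries DESeq2 called 3 members other than rdgA in PEN2 against CB instead of 2. It called 5 members in R4d against CB instead of 4, and a fit of only those groups also added 1 there. Asking for 1000 genes per well gave 0 in PEN1 wells with the reporter. Thinned to 20000 counts, rdgA had a count in 95.8% of PEN1 wells. Leaving out 1 library gave 1 to 4 members in D7, 1 to 3 in EPG, 1 to 2 in PEG and 0 to 1 in PEN2 against WB, and 1 to 2 in D7, 0 to 1 in PEG and 1 to 2 in PEN2 against the others. Leaving out 1 plate gave 0 to 1 between PEN1 and PEN2. The replicate block left 4 members called in D7 against WB and changed no call of a member; same-numbered libraries of different types did not deviate together (r -0.04 to 0.05 over 38 pairs). The causes of these moves were not tested.

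Over all genes, D7, EPG, PEG and PEN2 against WB had 979, 901, 583 and 734 calls. Without scaling they had 1859, 1612, 1006 and 1459, of which 3.34%, 3.16%, 3.68% and 2.47% were higher, against 17.1%, 16.1%, 16.6% and 19.2% with it, and the median log2 difference moved to -0.92, -0.92, -0.90 and -1.13, against -0.19, -0.22, -0.21 and -0.42. Without a filter they had 3795, 3767, 3187 and 3414, and with only the groups compared 1718, 1727, 1607 and 2609. Without WB replicate 1 they had 46, 30, 14 and 18, and without WB replicate 2 58, 34, 13 and 22. PEN2 against the others had 346 higher and 46 lower with upper-quartile scaling (88.3% higher), against 143 and 61 (70.1%), 304 and 89 without PEN2 replicate 1 (77.4%), 226 and 44 without PEN2 replicate 2 (83.7%), 142 and 97 without PEG replicate 1 (59.4%), and 206 and 278 without PEG replicate 2 (42.6%), where lower calls were the majority. Without PEG replicate 2, EPG against the others had 139 higher and 359 lower, against 123 and 118. In total, without PEG replicate 2, D7, EPG, PEG and PEN2 against the others had 659, 498, 494 and 484, against 428, 241, 182 and 204. PEG had 106 and 107 without WB replicates 1 and 2, and EPG had 159 without EPG replicate 3. In low-cell libraries without a filter there were 2377 calls in PEN2 against CB, 2850 in R4d against CB and 2226 in PEN2 against R4d, instead of 1009, 1517 and 1300, and R4d against CB had 2493 with only those groups. Between PEN1 and PEN2 plates DESeq2 had 107, no filter 87 and 1000 genes per well 7, instead of 16, and leaving out 1 plate gave as few as 6. For the reporter in PEN1 wells DESeq2 had 591, no filter 33 and 50 reporter counts 50, instead of 19. In PEN2 wells these were 213, 25 and 5, instead of 3, and leaving out 1 plate gave 1 to 8. The bulk table holds no depth, and each plate had 13 to 51 wells with the reporter, which limits the plate sums.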
